A study of Rattus norvegicus with 4 samples.

Results

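The transcripts examined were those of the insulin-like growth factors, their receptors and their binding proteins in rat soleus, a hindlimb muscle of mainly slow fibres that works in standing. They were taken as every probe set annotated to 1 symbol among Igf1, Igf2, Igf1r, Igf2r and Igfbp1 to Igfbp6. A probe set is the group of oligonucleotides on an Affymetrix array that together read a transcript. Of 10 listed genes 9 were matched, by 24 of the 7006 probe sets that carried 1 symbol. The 24 probe sets comprised 11 for the ligands, 3 for the receptors and 10 for the binding proteins. No probe set was matched to Igfbp4, which is not analysed here, and 0 probe sets naming several genes included a member.

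Soleus RNA from female rats whose hindlimbs were unloaded for 10 h per day over 11 days (2 pools) was compared with soleus RNA from female rats of the same 11-day experiment that stood and moved freely in their cages (2 pools). No genotype, strain or age is given in the labels. RNA of 4 to 5 rats was combined for each array, so a replicate is a pool of animals, and the spread between 2 pools does not give the spread between rats. Values are MAS5 signals in arbitrary units, where MAS5 is the Affymetrix method that summarises a probe set.

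Igf1 and Igf2 are secreted growth factors. Igf1r is the tyrosine kinase receptor through which both act, and Igf2r, which also carries lysosomal enzymes, takes up Igf2 for degradation. The binding proteins hold the ligands in blood and tissue, and depending on the protein and the context they limit or prolong receptor activation. In skeletal muscle, Igf1 made by the muscle itself is known to promote fibre growth, and Igfbp5 is a main binding protein made by muscle cells.

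The labelled tissue carried its markers. All 8 measured genes listed as markers of slow skeletal muscle, among them Myh7, Tnni1 and Myl2, were tested and 0 passed, with a median log2 fold change of -0.01. The list also holds Ckm and Acta1, which are not particular to slow fibres, so it does not measure fibre type. Their summed signal was 51774 to 57991 in unloaded pools and 55315 to 55657 in control pools. Each array had a 2% trimmed mean of 150.2 or 150.3 signal units, and precision is limited by the number of arrays. In whole muscle RNA, a change in the number of cells of a type and a change in RNA per cell cannot be told apart.

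No member passed the test in either direction. Of the 24 member probe sets, 15 (of 8 genes) reached the filter, a signal of 21.0 averaged over the 4 arrays (the 40th percentile), and were tested with limma on log2(signal + 9). At an adjusted p under 0.05, 0 of these 15 were higher and 0 lower in unloaded muscle, against 5.25% of all 5257 tested probe sets (2.59% higher and 2.66% lower). At an unadjusted p under 0.05, 2 of the 15 (1 each of Igfbp2 and Igfbp3) were higher and 0 lower, where 10.3% and 10.5% of all tested probe sets were. The Igfbp3 probe set reached the filter only through its unloaded signals, so its direction was fixed by entry. Over the 14 members with both group means above the filter, 1 was higher. The median log2 fold change of the 15 was 0.09, and of these 14 it was 0.08, beside 0.0013 over all tested probe sets. The 95% confidence interval of the change in signal + 9 lay within 2-fold in both directions for 14 of the 15. All fold changes and intervals here are of signal + 9, which pulls them toward no change, most at low signals.

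The binding proteins leaned upward in unloaded muscle, without a call. One of the 6 tested probe sets, rc_AI009405_s_at of Igfbp3, reached the filter only through its unloaded signals, so its higher level there supports nothing. The other 5, of Igfbp2, Igfbp3, Igfbp5 and Igfbp6, had positive log2 fold changes, from 0.07 to 0.54 with a median of 0.34. The 9 tested probe sets of ligands and receptors had a median of -0.06. In 4 of the 5 binding protein probe sets, of Igfbp2, Igfbp3 and Igfbp5, both unloaded pools lay above both control pools. Over the 14 members with both group means above the filter this held for 6 (42.9%), against 25.1% of the 5054 such probe sets in the whole table, and 1 of 14 (7.14%) lay wholly below, against 24.95%. With the Igfbp3 probe set counted it held for 7 of 15, against 25.5% of all tested probe sets (25.3% lay wholly below). Probe sets of a gene were counted singly, 2 of them for Igfbp5, and all read the same pools, so they are not separate observations. The members were chosen with earlier results known, so these shares are descriptions and were not tested.

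**Figure D1:**
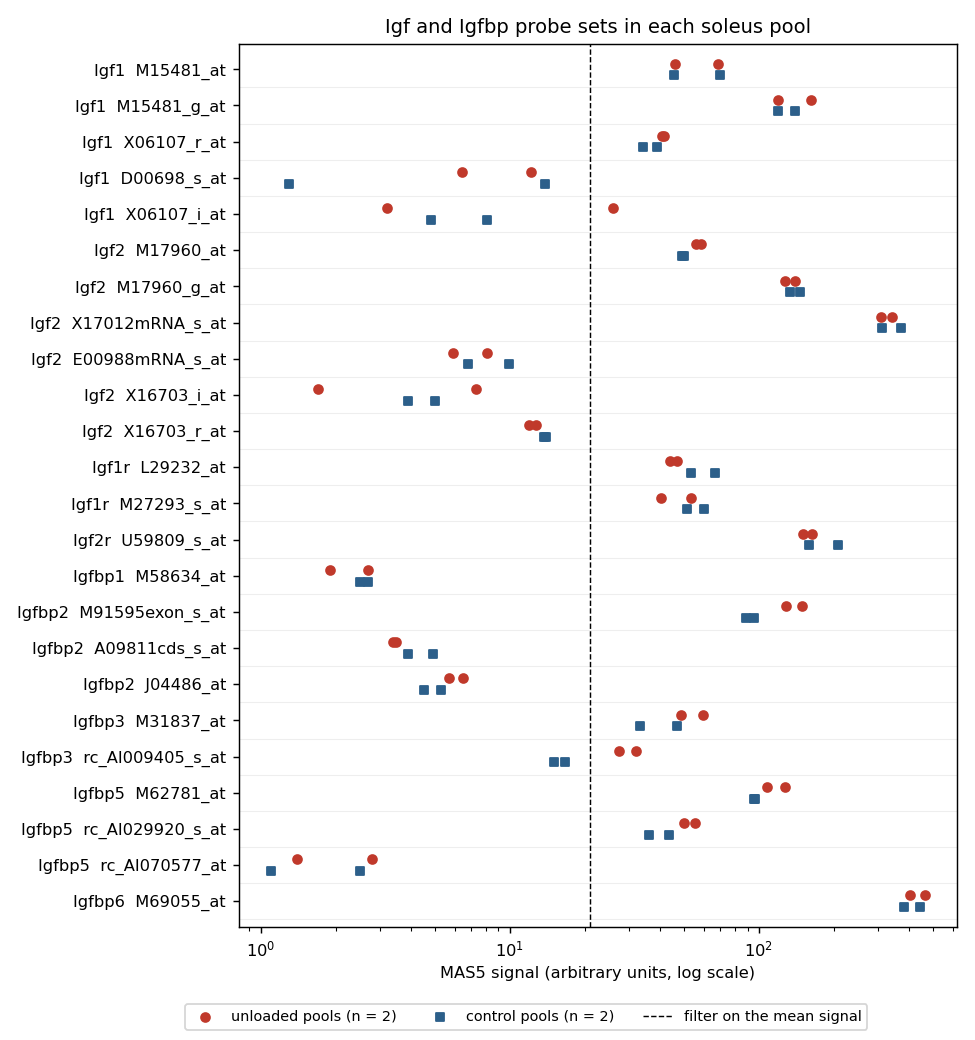
MAS5 signal (x axis, log scale) of the 24 member probe sets (y axis) in 2 unloaded pools (red circles) and 2 control pools (blue squares), with the filter at 21.0 as a dashed line. On the tested probe sets of Igfbp2, Igfbp3 and Igfbp5 both red points lie right of both blue ones, and the fitted differences are 1.20-fold to 1.56-fold, the highest of them on the Igfbp3 probe set whose control points lie left of the filter.

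Sequence just before the annotated start is shown for the genes whose tested probe sets all had both unloaded pools above both control pools, Igfbp2, Igfbp5 and Igfbp3, and for Igf1r, the member with a tested probe set wholly lower in unloaded pools. The 250 bases before the start come from RefSeq on GRCr8, which held such sequence for all 10 genes, and are given 5′ to 3′. Capitals mark the GC box (GGGCGG on either strand), a site read by SP1-type factors.
Igfbp2 (GRCr8, chr9:81864561-81864810, plus strand): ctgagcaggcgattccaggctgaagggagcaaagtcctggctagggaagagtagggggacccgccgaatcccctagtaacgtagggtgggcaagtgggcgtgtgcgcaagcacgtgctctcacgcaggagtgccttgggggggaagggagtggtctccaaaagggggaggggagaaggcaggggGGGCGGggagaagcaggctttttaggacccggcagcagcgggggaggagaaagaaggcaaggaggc
Igfbp5 (GRCr8, chr9:81914188-81914437, minus strand): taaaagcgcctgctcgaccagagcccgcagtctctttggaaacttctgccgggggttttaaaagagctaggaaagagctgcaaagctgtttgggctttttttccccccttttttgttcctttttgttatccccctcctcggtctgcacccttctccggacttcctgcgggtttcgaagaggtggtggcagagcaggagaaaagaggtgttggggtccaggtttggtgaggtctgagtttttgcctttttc
Igfbp3 (GRCr8, chr14:86277945-86278194, minus strand): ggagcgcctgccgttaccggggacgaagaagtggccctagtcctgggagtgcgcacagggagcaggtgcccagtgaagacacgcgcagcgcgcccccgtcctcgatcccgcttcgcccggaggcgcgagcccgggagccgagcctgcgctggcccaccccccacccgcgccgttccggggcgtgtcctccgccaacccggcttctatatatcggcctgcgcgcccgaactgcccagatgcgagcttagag
Igf1r (GRCr8, chr1:130959747-130959996, plus strand): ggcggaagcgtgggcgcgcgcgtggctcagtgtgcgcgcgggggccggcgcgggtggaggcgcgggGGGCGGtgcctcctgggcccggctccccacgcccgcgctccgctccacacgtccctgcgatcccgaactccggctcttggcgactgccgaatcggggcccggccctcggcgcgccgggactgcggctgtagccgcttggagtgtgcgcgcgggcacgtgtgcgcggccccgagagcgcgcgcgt

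The GC box occurred once in the window of Igfbp2, 66 bases before the start, and once in that of Igf1r, at 184 bases, and its letters are not in the windows of Igfbp5 and Igfbp3. It was found in 30.5% of 33469 RefSeq promoter windows of that length. The TATA box letters TATAAA, sought on both strands, were in 0 of these 4 windows and in 12.9% of all windows. The window of Igf1r was 79.6% G and C, that of Igfbp3 71.6%, of Igfbp2 64.0% and of Igfbp5 51.6%. Igfbp2 and Igfbp5 are next to each other on chromosome 9, on opposite strands with their ends facing, and Igfbp1 and Igfbp3 lie in the same way on chromosome 14. A match of letters is a description of the sequence and does not show that a factor binds there.

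Igfbp2, which carries both ligands, came closest to the threshold. Its probe set M91595exon_s_at read 128.1 and 148.8 in unloaded pools 1 and 2, against 95.6 and 89.1 in control pools 1 and 2. Both unloaded pools lay above both control pools, with means of 138 ± 14.6 in unloaded pools and 92.3 ± 4.60 in control pools (SD, n = 2 each). The log2 fold change was 0.54 (SE 0.13), a 1.45-fold difference with a 95% interval of 1.17-fold to 1.80-fold and a limma adjusted p of 0.0605. With the filter raised to the 60th percentile, which leaves fewer probe sets to adjust over, the limma adjusted p was 0.0364. With each gene averaged over its tested probe sets it was 0.0447, but Igfbp2 has 1 of these, so its log2 fold change was unchanged. Other settings raised the adjusted p, to 0.139 without a filter and 0.073 with quantile normalization. It was 0.108 without the mean-variance trend and 0.108 with the pool number as a block, so the call depends on these settings. Leaving out 1 pool moved the log2 fold change between 0.44 and 0.64, with adjusted p between 0.160 and 0.279.

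The other probe sets of Igfbp2 were dim. J04486_at read 5.7 and 6.5 in unloaded pools, against 4.5 and 5.3 in control pools. A09811cds_s_at read 3.5 and 3.4 in unloaded pools, against 3.9 and 4.9 in control pools. These stayed under the filter in every pool, and the one lay higher and the other lower in unloaded muscle, so the difference in Igfbp2 rests on a single probe set.

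Igfbp3, the main carrier of the ligands in the circulation, was read by a pair of probe sets. Both were higher in unloaded muscle, but rc_AI009405_s_at entered the test only through its unloaded signals, so the shared sign adds no support. On rc_AI009405_s_at the signals were 27.5 and 32.0 in unloaded pools, against 15.1 and 16.6 in control pools. Its log2 fold change was 0.64 (SE 0.20), or 1.56-fold with a 95% interval of 1.13-fold to 2.15-fold, and it did not pass (limma adjusted p = 0.126). The control pools were under the filter of 21.0, so the probe set was tested only because its unloaded signals were higher, and a difference was needed for it to enter. At signals this low the offset moved the value, to 0.79 if taken at the 10th percentile and to 0.35 at the 50th, which is below the 0.44 of Igfbp2 at that offset.

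The other Igfbp3 probe set, M31837_at, read 59.6 and 48.5 in unloaded pools, against 47.1 and 33.3 in control pools. The groups did not overlap, but the lower unloaded pool and the higher control pool were 48.5 and 47.1. Its log2 fold change was 0.37 (SE 0.20, limma adjusted p = 0.338), and with 1 pool left out it ran from 0.16 (without control pool 2) to 0.57 (without control pool 1). The average over both probe sets, 0.50 (SE 0.18, adjusted p = 0.156), takes in the one that entered through its unloaded signals.

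Igfbp5, a binding protein that muscle cells secrete as they differentiate, also lay higher in both unloaded pools on both tested probe sets without passing. M62781_at read 127.7 and 108.0 in unloaded pools, against 96.6 and 95.4 in control pools, a log2 fold change of 0.27 (SE 0.14, limma adjusted p = 0.308) that was 0.16 without unloaded pool 1. On rc_AI029920_s_at the signals were 55.5 and 50.2 in unloaded pools, against 43.7 and 36.3 in control pools, at 0.34 (SE 0.17, limma adjusted p = 0.300). The 95% intervals ran from 0.969-fold to 1.497-fold and from 0.966-fold to 1.66-fold, so neither interval shuts out equal levels. The remaining probe set, rc_AI070577_at, read 2.8 and 1.4 in unloaded pools, against 1.1 and 2.5 in control pools.

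Igfbp6, which prefers Igf2 over Igf1, gave a small difference. M69055_at read 463.6 and 402.7 in unloaded pools, against 384.2 and 442.0 in control pools, and the groups overlapped. The log2 fold change was 0.07 (SE 0.12, limma adjusted p = 0.814), with a 95% interval of 0.866-fold to 1.27-fold. Igfbp1, a binding protein made mainly by the liver, read 1.9 and 2.7 in unloaded pools, against 2.5 and 2.7 in control pools, under the offset of 9 on every array, and was not tested.

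**Figure D2:**
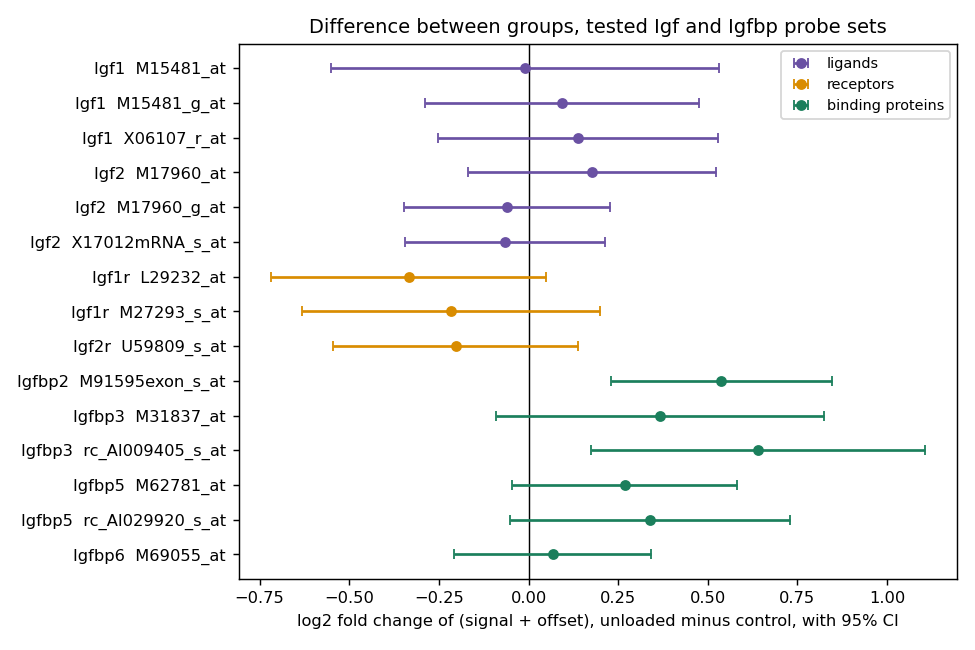
Log2 fold change, unloaded minus control (x axis), of the 15 tested member probe sets (y axis), with 95% confidence intervals from limma, coloured by role. The 6 binding protein points lie right of 0, from 0.07 to 0.64, and 2 of their intervals leave out 0 before adjustment, those of Igfbp2 and of the Igfbp3 probe set that was tested only through its unloaded signals.

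Igf1 did not pass on any of its 3 tested probe sets, and the groups overlapped on the 2 brighter ones. M15481_g_at read 119.2 and 161.3 in unloaded pools, against 140.0 and 119.7 in control pools. M15481_at, designed on the same sequence record, read 68.2 and 46.2 in unloaded pools, against 45.6 and 70.1 in control pools. In each group the pool that was higher on one of these probe sets was lower on the other, so the difference between pools of a group was not a shared one. Their log2 fold changes were 0.09 (SE 0.16, limma adjusted p = 0.814) and -0.01 (SE 0.23, adjusted p = 0.988).

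The third tested Igf1 probe set, X06107_r_at, read 40.7 and 41.5 in unloaded pools, against 39.0 and 34.2 in control pools, at 0.14 (SE 0.17, limma adjusted p = 0.712). Here both unloaded pools lay above both control pools, and without control pool 2 the value was 0.06. Averaged over its 3 tested probe sets, Igf1 gave 0.07 (SE 0.14), with a 95% interval on the log2 scale of -0.24 to 0.39. That interval lies within 2-fold in both directions and covers smaller changes of either sign. On the dim probe set X06107_i_at the unloaded pools stood far apart, at 26.0 and 3.2, against 8.1 and 4.8 in control pools. D00698_s_at read 12.1 and 6.4 in unloaded pools, against 1.3 and 13.8 in control pools.

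Igf2, a growth factor whose expression in rodents is highest before birth, was measured by 3 tested probe sets whose differences were all small. X17012mRNA_s_at read 309.9 and 340.9 in unloaded pools, against 312.5 and 371.4 in control pools. M17960_g_at read 127.0 and 139.5 in unloaded pools, against 145.6 and 133.1 in control pools. The groups overlapped on both, and their log2 fold changes were -0.07 (SE 0.12, limma adjusted p = 0.821) and -0.06 (SE 0.12, adjusted p = 0.840).

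M17960_at, of the same sequence record as M17960_g_at, read 58.3 and 55.8 in unloaded pools, against 49.9 and 49.0 in control pools. Here both unloaded pools lay above both control pools, at a log2 fold change of 0.18 (SE 0.15, limma adjusted p = 0.576), so the sign for Igf2 depended on the probe set. Averaged over the 3 probe sets it was 0.02, with a 95% interval of -0.24 to 0.27. The 3 dim probe sets of Igf2 read between 1.7 and 12.7 in unloaded pools and between 3.9 and 14.0 in control pools.

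All 3 tested receptor probe sets had negative log2 fold changes, and 0 passed. For Igf1r, L29232_at read 44.1 and 46.9 in unloaded pools, against 66.4 and 53.6 in control pools. It was the one tested member probe set with both unloaded pools below both control pools, at -0.33 (SE 0.17, limma adjusted p = 0.299). For signal + 9 this is 0.793-fold, with a 95% interval of 0.608-fold to 1.03-fold, beside a ratio of mean signals of 0.758. Without control pool 1 the log2 fold change was -0.20. M27293_s_at, the other Igf1r probe set, read 40.6 and 53.5 in unloaded pools, against 60.2 and 51.5 in control pools, and the groups overlapped (-0.22, SE 0.18, limma adjusted p = 0.563). Without unloaded pool 1 this value was -0.05. The Igf1r average was -0.28 (SE 0.17, adjusted p = 0.402).

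Igf2r, on U59809_s_at, read 150.4 and 163.2 in unloaded pools, against 158.9 and 207.6 in control pools. Its log2 fold change was -0.20 (SE 0.15, limma adjusted p = 0.499), and without control pool 2, the highest of the 4, it was -0.02. Control pool 1 lay between the unloaded pools, so the groups overlapped and the size of the difference rested on control pool 2.

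The 9 member probe sets under the filter belonged to Igf1, Igf2, Igfbp1, Igfbp2 and Igfbp5 and read between 1.1 and 26.0 over the 4 arrays. The nearest member above the filter had a mean signal of 22.8 and the nearest below it 13.1. Fitted without a filter, their log2 fold changes ran from -0.11 to 0.43 with limma adjusted p from 0.756 to 0.980. At signals near or under the offset of 9 a real change would be understated, so these probe sets give little information.

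Binding proteins are also made by connective tissue and vessel cells, whose markers were set beside them, first on the brightest probe set of each. Of 8 fibroblast markers 0 passed, with a median log2 fold change of 0.14 and a summed signal of 8651 to 10738 in unloaded pools and 7920 to 9033 in control pools. Of 4 smooth muscle markers 0 passed, with a median of 0.24, and their sum was 1205 to 1306 in unloaded pools and 969 to 1087 in control pools. Of 4 endothelial markers 0 passed, with a median of -0.13, and their sum was 316 to 343 in unloaded pools and 370 to 372 in control pools. On other probe sets a marker of fibroblasts and one of smooth muscle rose, in the direction in which the binding proteins leaned. Over all tested 1-symbol probe sets of the fibroblast markers 1 of 19 was higher and 0 lower. Of these, 10 of 19 were positive, with a median of 0.04. The 1 that passed was X59859_r_at of the matrix proteoglycan Dcn, at 738.6 and 668.5 in unloaded pools, against 350.3 and 410.6 in control pools (0.87, limma adjusted p = 0.0054). The other Dcn probe sets did not pass (0.41, 0.31 and 0.21, limma adjusted p = 0.0830, 0.229 and 0.398). Every tested Col1a1 and Col3a1 probe set had a negative value, from -0.12 to -0.0038. The other listed collagen, Col1a2, was positive (0.18), as were Lum (0.16) and Pdgfra (0.07). Fn1, from -0.15 to 0.43, and Thy1, at -0.47 and 0.12, had probe sets of both signs. None of these passed. Over the tested 1-symbol probe sets of the smooth muscle markers 1 of 8 was higher and 0 lower. Of these, 7 of 8 were positive and the median was 0.32.

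The smooth muscle call was on X06801cds_i_at of the smooth muscle actin Acta2, at 225.7 and 270.3 in unloaded pools, against 120.7 and 153.2 in control pools (0.82, limma adjusted p = 0.0221). Its probe set rc_AA900769_s_at (0.40, adjusted p = 0.0554) and M83107_at of the actin-binding protein Tagln (0.50, adjusted p = 0.0601) missed the threshold. With 1 pool left out Dcn passed once (adjusted p = 0.0269 without control pool 2, otherwise 0.0545 to 0.0855) and Acta2 never (0.0597 to 0.172). No fibroblast, smooth muscle or endothelial marker was at 0 on any array. The part of these cells in the binding protein differences was not tested.

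By the distance between centred log2 values over the 4 arrays, the probe sets most like that of Igfbp2 were those of Oplah (0.061), Hnrnpa1 (0.062) and Vezf1 (0.073). Hnrnpa1, an RNA-binding protein, read 68.9 and 86.1 in unloaded pools, against 52.6 and 49.1 in control pools. It did not pass (0.52, SE 0.16, limma adjusted p = 0.119). Oplah, an enzyme of the glutathione cycle, averaged 151 ± 10.0 in unloaded pools and 102 ± 2.83 in control pools (0.53, SE 0.12, limma adjusted p = 0.0514). Vezf1, an endothelial zinc-finger factor, read 412.1 and 443.3 in unloaded pools, against 296.5 and 279.2 in control pools, and passed (0.56, SE 0.10, adjusted p = 0.0225), a call lost whichever pool was left out (adjusted p = 0.0940 to 0.168). With 4 arrays in 2 groups, likeness mostly restates a similar difference between the groups.

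**Figure D3:**
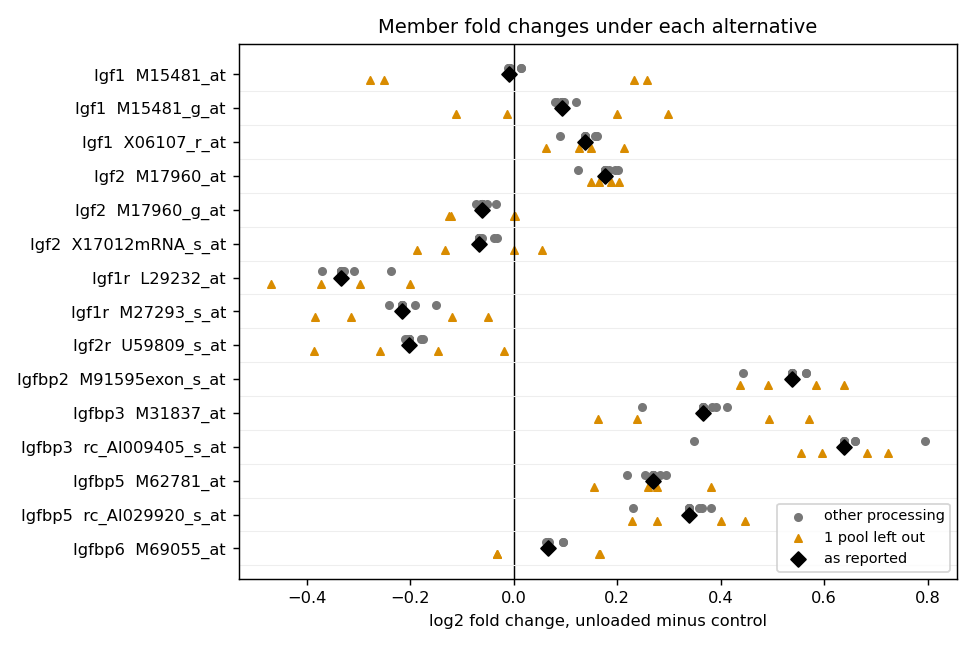
Log2 fold change, unloaded minus control (x axis), of the 15 tested member probe sets (y axis) as reported (black diamonds), under other processing (grey circles) and with 1 pool left out (orange triangles). The points of Igfbp2, Igfbp3 and Igfbp5 stay right of 0 and those of Igf1r and Igf2r left of it, while those of Igf1 M15481_at run from -0.28 to 0.26.

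Around the members, genes of the signalling chain were counted in 6 lists, by the brightest probe set of a gene. Among all 67 measured list genes, 4 rose and 6 fell, while 57 missed the threshold. Their median log2 fold change was 0.01, the same as over all 3152 genes tested (80 rose and 68 fell, 4.70% in all). The lists were chosen with earlier results of these data known, so how the calls were spread over them is a description and was not tested. Of 14 receptor and adaptor genes 2 fell, with a list median of -0.11. They were Irs1 and Irs2, the docking proteins that link Igf1r and the insulin receptor to PI3-kinase.

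Irs1 read 30.1 and 37.8 in unloaded pools, against 79.2 and 64.9 in control pools (-0.92, SE 0.18, limma adjusted p = 0.0271). Irs2 read 45.6 and 59.8 in unloaded pools, against 133.0 and 95.2 in control pools on its brightest probe set (-0.99, SE 0.19, adjusted p = 0.0283). On these probe sets neither passed with any 1 pool left out, with adjusted p of 0.0887 to 0.180 for Irs1 and 0.0639 to 0.199 for Irs2. The other 2 tested Irs2 probe sets also fell, but their unloaded signals were under the filter, so they were tested only through their control signals. AF083418_at read 8.4 and 5.9 in unloaded pools, against 118.7 and 98.9 in control pools (-2.87, SE 0.19, limma adjusted p = 1.9e-04), and it passed whichever pool was left out (adjusted p = 0.0057 to 0.0107).

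AF087674_at read 16.1 and 16.7 in unloaded pools, against 104.4 and 47.6 in control pools (-1.66, SE 0.30, adjusted p = 0.0222), and with 1 pool left out it passed without control pool 2 alone (0.0112, otherwise 0.0963 to 0.170). The 2 Irs2 probe sets that entered through their control signals add no support for the sign, and the size differed between the 3. The insulin receptor Insr, which also binds the ligands, gave -0.42 (SE 0.17, adjusted p = 0.223), and the adaptor Grb2 gave 0.12 (SE 0.11, adjusted p = 0.622).

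Downstream of the adaptors, 0 of 16 genes of PI3-kinase, AKT and mTOR signalling passed, and their log2 fold changes ran from -0.45 to 0.16 with a median of -0.01. The lowest was Pik3r3, a regulatory subunit of PI3-kinase, at -0.45 (SE 0.21, limma adjusted p = 0.271). It read 18.1 and 14.7 in unloaded pools, against 23.9 and 27.5 in control pools, so it reached the filter only through its control signals. For the ribosomal S6 kinase Rps6kb1 the brightest probe set had -0.29 (SE 0.13, adjusted p = 0.243) and the other 0.11 (SE 0.14). Of 7 RAS and MAPK genes 1 fell, the MAP kinase phosphatase Dusp1 (-0.995, SE 0.10, adjusted p = 0.00149), which on this probe set also passed with each pool left out in turn. Its other 2 probe sets fell by 1.31 and 1.05. The median of this list was -0.13.

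In the growth hormone axis, which drives Igf1 expression in the liver, 1 of 11 genes fell and the median was -0.04. It was Socs3, a feedback inhibitor of cytokine and insulin receptor signalling, at 26.9 and 42.5 in unloaded pools, against 77.5 and 78.1 in control pools (-1.01, SE 0.20, limma adjusted p = 0.0284). It passed with unloaded pool 2 left out (adjusted p = 0.0431) and not with any other pool left out (0.148 to 0.158). The growth hormone receptor Ghr gave -0.12 (SE 0.11, adjusted p = 0.607), and Igfals, the partner of Igf and Igfbp3 in the serum complex, gave 0.01 (SE 0.14, adjusted p = 0.977).

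Among 12 relatives of the binding proteins and enzymes of their processing 1 fell and 0 rose, with a median of 0.21. Ccn1, a matrix protein with a domain like that of the binding proteins, read 36.3 and 12.2 in unloaded pools, against 106.6 and 124.3 in control pools (-2.00, SE 0.32, limma adjusted p = 0.0126). It did not pass without control pool 1 (adjusted p = 0.0981) or control pool 2 (0.123). It is the gene of this list whose sign was opposite to that of the tested binding proteins and past the threshold. The proteases and inhibitors did not pass, among them Mmp14 (0.37, SE 0.15), Plat (0.39, SE 0.13), Plau (0.24, SE 0.11) and Timp1 (0.20, SE 0.12), with adjusted p of 0.131 to 0.390. Apart from Ccn1, the genes of this list with negative values were Esm1 (-0.53, SE 0.19, limma adjusted p = 0.178) and Mmp3 (-0.04, SE 0.25, adjusted p = 0.955).

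FOXO factors, which AKT holds out of the nucleus, were counted with genes linked to them in muscle wasting. There were 7 such genes measured, of which 4 rose and 1 fell, and their median was 0.64. The redox regulator Txnip (1.19, SE 0.09), the growth arrest gene Gadd45a (0.87, SE 0.11), the transcriptional coregulator Cited2 (0.64, SE 0.09) and the pyruvate dehydrogenase kinase Pdk4 (0.65, SE 0.15) rose, with limma adjusted p of 3.2e-04 to 0.0486. The muscle ubiquitin ligase Trim63 fell by 0.59 (SE 0.11, adjusted p = 0.0262), and Foxo1 itself gave 0.29 (SE 0.19, adjusted p = 0.455). On the brightest probe sets, of these 5 calls that of Txnip also held with each pool left out in turn. Gadd45a was lost without control pool 2 or unloaded pool 2 (adjusted p = 0.0561 and 0.0640), and Pdk4 without control pool 2, unloaded pool 1 or unloaded pool 2 (0.181 to 0.241), with a log2 fold change of 0.43 without control pool 2. Cited2 (0.0623 to 0.112) and Trim63 (0.0644 to 0.193) were lost there whichever pool was left out. Other probe sets of Cited2 and Gadd45a held whichever pool was left out, rc_AA900476_at of Cited2 (1.39, adjusted p = 5.5e-04, with 1 pool left out 0.0107 to 0.0222) and L32591mRNA_at of Gadd45a (1.14, adjusted p = 0.0010, with 1 pool left out 0.0121 to 0.0342). The other Trim63 probe set fell by 0.76 (adjusted p = 0.0384) and was lost in each case (0.115 to 0.195). Several of these genes were known to differ in these arrays before the list was written, so its count is no independent evidence of a direction.

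**Figure D4:**
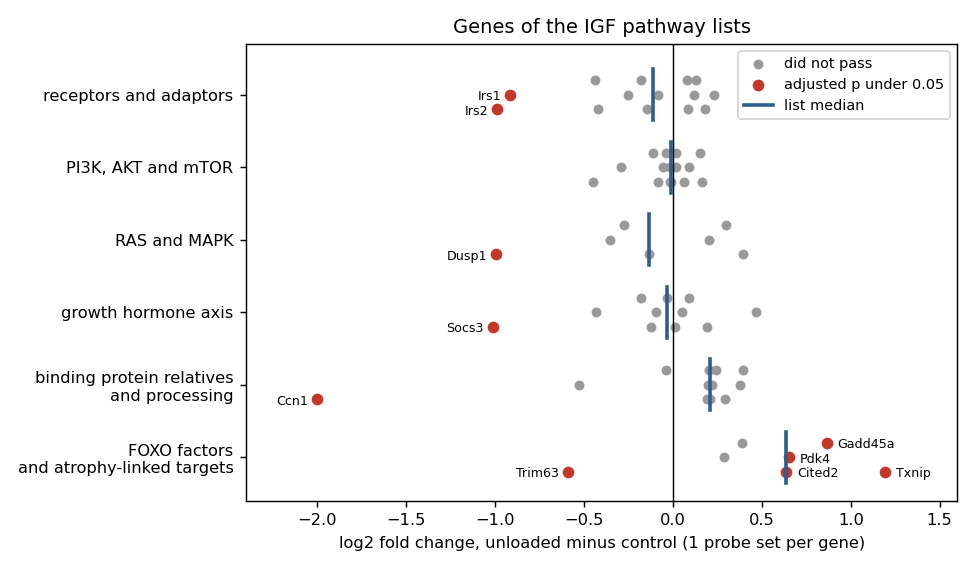
Log2 fold change, unloaded minus control (x axis), of the measured genes of the 6 pathway lists (y axis), 1 probe set per gene. Red points passed at an adjusted p under 0.05, grey points did not, and blue bars are list medians, which run from -0.13 to 0.64.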

How the data were processed

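The authors deposited 1 table of intensity values, made with MAS5 per the submitters' processing notes (version and scaling target: not given in the sources used here). Values deposited as intensities run from 0 upward on a linear scale. Detection calls, slides and scan dates were not used here. After 59 Affymetrix control probe sets were left out of 8799, the rest were named by the platform's annotation with symbols updated through RefSeq (GRCr8): 7006 had 1 symbol, 308 several and 1426 none.

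Signals were taken as log2(signal + 9), with 9 the 25th percentile, a scale on which low signals change less than they did. Those averaging 21.0 or more over the arrays entered limma 3.58.1 in R 4.3.3 (mean-variance trend), with Benjamini-Hochberg adjustment over all 5257 and a threshold of 0.05. In simulated data for these 5257 probe sets, 200 were changed on the log2(signal + 9) scale, with noise drawn from the spread this fit estimated. The share recovered was 29.8% for changes of 1.5-fold, 77.8% for 2-fold and 99.2% for 4-fold, at 4.52% false calls. Such changes of the signal itself are smaller on this scale at low signals. Because the noise followed the fit's own model, the false share does not test that model.

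Named were every member probe set, from each list up to 6 genes that passed or else the 2 with the smallest p, and the 3 probe sets nearest to the member with the smallest p. Other members of lists and markers were named after their values were seen. Members and lists were chosen with earlier results of these data known. Alternatives covered normalization, offset, filter, trend, pool number as a block, threshold, gene averages and leaving out each pool. Plots used matplotlib 3.10.9 (Python 3.11.15).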

Additional observations from a re-analysis of the deposited data

How the results depend on the processing

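Over 13 alternatives the 15 tested member probe sets kept direction and side of the threshold in 174 of 188 values. The filter, trend, block and threshold settings leave a member's log2 fold change as it was. For these the direction was fixed beforehand and only the side of the threshold could move. Igfbp2 passed with the filter at the 60th percentile and at an adjusted p under 0.10, giving 1 member call in each, and 1 in the gene averages, an alternative chosen after seeing the data. The sign of Igf1 M15481_at turned with quantile normalization (0.0145) and median scaling (0.0143). With 1 pool left out, 5 uncalled values changed sign and did not pass: Igf1 M15481_at ran from -0.28 to 0.26, Igf1 M15481_g_at from -0.11 to 0.30, Igf2 M17960_g_at from -0.12 to 0.0027, Igf2 X17012mRNA_s_at from -0.19 to 0.0552 and Igfbp6 M69055_at from -0.0326 to 0.17. The cause was not tested.

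Over the whole table, 42 probe sets were higher and 48 lower without a filter, 52 and 61 without a trend, 78 and 87 with the pool number as a replicate block, and 226 and 232 at an adjusted p under 0.10. With genes averaged, 88 genes were lower. Leaving out 1 pool gave 22 to 43 higher and 38 to 55 lower. The block called 0 members. Deviations of same-numbered pools correlated at -0.04, so the numbers were not taken to pair the pools. Of the pathway genes, 1 fell without a filter, 2 rose and 1 fell without a trend, 2 fell with the block, and 1 to 3 rose and 1 to 3 fell with 1 pool left out. Other probe sets of markers and pathway genes, and the counts without the Igfbp3 probe set tested through 1 group, were added after seeing the data. Dim members, near the offset, carry little information.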
